A study of Mus musculus and Homo sapiens with 23 samples.

Results

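Replication-dependent histone genes were followed in RNA of BV2, a mouse microglial cell line that grows without limit. The members were all genes whose older mouse symbol begins with Hist1h, Hist2h, Hist3h or Hist4h, most of which are now named H1f, H2ac, H2bc, H3c or H4c with a number (exceptions are H2aw, H2bu2, H4f16 and H4bc24). Names were matched through the RefSeq accession of each row. Of 22440 genes with a row, 66 were members, with 74 rows. A further 5 genes of the name table that match the rule had no row under their accession and were not analysed here. The study compared unstimulated BV2 cells with BV2 cells given lipopolysaccharide (LPS), a cell wall component of Gram-negative bacteria, for 3 h. Each group was 1 RNA library of 1 cell line, with no other treatment or genetic change in the labels of these libraries, so no difference below has a replicate check and no p-value is given. The RNA was total RNA extracted with Trizol and made into strand-specific libraries. The sources used here do not give whether polyadenylated RNA was selected.

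Core histones H2A, H2B, H3 and H4 form the nucleosome, and linker histone H1 binds the DNA between nucleosomes. Replication-dependent histone genes lie in clusters, mostly have no introns and are transcribed mainly in S phase, when new DNA must be packed. Their mRNAs end in a conserved stem-loop instead of a poly(A) tail. The stem-loop binding protein Slbp and the U7 small nuclear ribonucleoprotein take part in forming this 3′ end. Some of these genes can also give polyadenylated transcripts. Libraries made from poly(A)-selected RNA capture the stem-loop form poorly.

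The values are FPKM, fragment counts divided by transcript length and by library size, deposited with a lower and an upper bound for each row. The bounds allowed the number of fragments behind a value to be read, since their half-width was 2 standard deviations of a count. Of the histone rows of usable status with a fragment, 45 of 49 gave a whole number (to within 0.05) for unstimulated cells, as did 40 of 43 after LPS. All rows of usable status together held about 13790000 fragments in unstimulated cells and 16910000 after LPS. In rows with whole numbers, 1 fragment was worth 0.952 times as much FPKM in the LPS library as in the unstimulated one. An interval after an FPKM is the deposited 95% interval, and an interval after a ratio is an exact conditional binomial one on the fragments. Both cover counting error inside these libraries only. The myeloid markers fixed for the cell type check were at 1 FPKM or more for 9 of 9 measured genes in both libraries. Among microglial markers, Trem2 was at 317 FPKM unstimulated and 232 after LPS, Tmem119 and P2ry12 were at 2.16 and 1.19 FPKM unstimulated and below 1 after LPS, Cx3cr1 was below 1 and Sall1 at 0, so these last 4 markers of microglia in tissue were low or absent. Of the markers of neurons, astrocytes, oligodendrocytes, fibroblasts, endothelium and lymphocytes, only Cnp, Kdr and Il7r reached 1 FPKM, at 4.38, 5.45 and 1.77 unstimulated and 8.10, 4.79 and 0.591 after LPS.

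The promoters of 5 members are shown first. H2bc18 and H1f3, an H2B and a linker histone gene, were lower in the LPS library. H2ac18 and H2aw, both H2A genes, were higher, and H1f2, the most abundant linker histone gene, was at 1.14 times its unstimulated level. Of these 5, only H2bc18 was called by the size rule given below. Promoters of the called genes H4c14, H2bc21, H3c13 and H4c17 are not printed. Each line gives 250 bases up to the start of the gene, 5′ to 3′ on the gene's strand, from the RefSeq promoter table of build GRCm38.p6. Capitals mark the CCAAT box (CCAAT), the TATA box (TATAA), the octamer of H2A and H2B promoters (ATTTGCAT) and the H1 box (AAACACA), each on either strand. The motifs were searched separately and TATAA can overlap its own reverse form.
H2bc18 (chr3:96269450-96269699, plus strand): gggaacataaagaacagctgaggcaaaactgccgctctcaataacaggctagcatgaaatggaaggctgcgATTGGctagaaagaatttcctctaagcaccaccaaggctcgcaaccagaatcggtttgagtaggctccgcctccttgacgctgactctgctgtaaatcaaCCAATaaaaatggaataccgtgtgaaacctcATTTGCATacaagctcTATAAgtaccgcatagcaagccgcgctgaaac
H1f3 (chr13:23554782-23555031, plus strand): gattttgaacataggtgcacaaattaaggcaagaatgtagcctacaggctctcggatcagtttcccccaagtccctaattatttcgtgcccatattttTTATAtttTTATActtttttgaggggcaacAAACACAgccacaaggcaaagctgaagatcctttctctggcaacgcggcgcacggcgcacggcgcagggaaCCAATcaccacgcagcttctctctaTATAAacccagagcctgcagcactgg
H1f2 (chr13:23738557-23738806, plus strand): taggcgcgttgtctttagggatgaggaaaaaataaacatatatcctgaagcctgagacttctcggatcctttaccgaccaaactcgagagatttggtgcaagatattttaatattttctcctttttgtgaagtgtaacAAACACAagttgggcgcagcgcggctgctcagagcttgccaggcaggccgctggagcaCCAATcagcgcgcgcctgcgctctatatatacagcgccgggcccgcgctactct
H2ac18 (chr3:96245247-96245496, plus strand): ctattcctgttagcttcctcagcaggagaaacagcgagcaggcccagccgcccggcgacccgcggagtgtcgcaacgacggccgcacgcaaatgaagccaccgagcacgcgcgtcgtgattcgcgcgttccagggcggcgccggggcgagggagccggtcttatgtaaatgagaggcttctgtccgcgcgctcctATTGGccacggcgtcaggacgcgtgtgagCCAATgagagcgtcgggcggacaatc
H2aw (chr11:58954435-58954684, plus strand): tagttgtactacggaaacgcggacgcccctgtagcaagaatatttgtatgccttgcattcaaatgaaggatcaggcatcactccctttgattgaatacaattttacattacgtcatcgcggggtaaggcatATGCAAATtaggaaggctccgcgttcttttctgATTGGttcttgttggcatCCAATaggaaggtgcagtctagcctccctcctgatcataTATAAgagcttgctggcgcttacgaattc

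The table held 60 promoters for 59 of the 64 members with a usable row. The CCAAT box stood in 49 of these 60 (81.7%), against 33.8% of all 32851 promoters of the same length. By class it stood in 16 of 16 H2A and 16 of 16 H2B promoters but in 3 of 12 H4 promoters. The octamer, which is a binding site of POU factors such as Oct-1, stood in 7 of 16 H2A and 7 of 16 H2B promoters, in 0 promoters of the other classes, and in 1.60% of all promoters. H2A and H2B genes can lie close together, such as H2bc13 and H2ac13 (mm9 chromosome 13, 21807632 to 21808012 and 21808291 to 21808683). A CCAAT box or octamer between such genes may be counted for both, so the H2A and H2B counts may not be independent. Shared sites were not counted. The H1 box stood in 5 of 6 linker histone promoters and in 6.25% of all promoters. Among the promoters shown, the octamer stood in H2bc18, where it began 48 bases before the gene's start, and in H2aw on the reverse strand. H1f3 and H1f2 held the H1 box, 122 and 112 bases before the start. Whether any motif went with the change of the members was not tested. A match describes these letters and not the use of a site.

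The histone RNA measured was carried by few genes. Whether poly(A) RNA was selected is not known, and its part in the ranking of the members was not tested. The 3 highest members, H2bc4, H1f2 and H2ac18, held 81.5% of the members' summed FPKM in unstimulated cells and 88.3% after LPS. H2bc4, an H2B gene (mm9 chromosome 13, 23776068 to 23784349), was at 297 FPKM (287 to 308) unstimulated and 284 (275 to 294) after LPS. H1f2, the linker histone H1.2 (chromosome 13, 23830676 to 23832236), was at 73.4 (70.3 to 76.6) and 84.0 (80.8 to 87.3). The ratio of the LPS to the unstimulated library was 0.956 (0.912 to 1.003) for H2bc4 and 1.14 (1.08 to 1.21) for H1f2. The sign of either difference depended on scaling. H2bc4 was at 0.17 on the log2(FPKM + 1) scale after median scaling and H1f2 at -0.05 after rescaling to TPM. All members together summed to 507 FPKM on 7152 fragments in unstimulated cells and to 496 FPKM on 7525 after LPS. They made up 0.0917% of the summed FPKM of all genes in unstimulated cells and 0.0756% after LPS. The sum over all genes was itself higher after LPS, at 553567 FPKM unstimulated and 656068 after LPS.

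**Figure D1:**
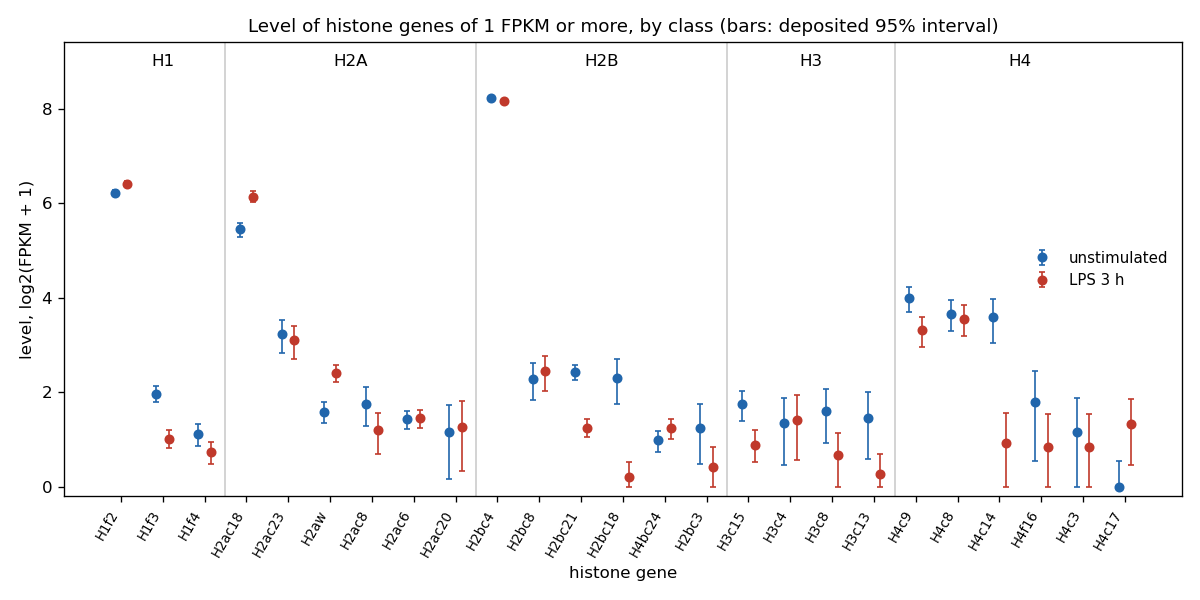
Level, as log2(FPKM + 1), of the 25 histone genes of 1 FPKM or more in either library, grouped by histone class, in the unstimulated (blue) and the LPS library (red), 1 library each. Bars are the deposited 95% intervals. H2bc4, H1f2 and H2ac18 stand above all others in both libraries, and H4c14, H2bc18 and H2bc21 have the LPS point well below the unstimulated one.

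Most members were at or near 0. Of the 64 genes with a usable row, 16 were listed at 0 in both libraries, among them the testis genes H2ac1 and H2bc1 and the linker histone gene H1f1. Another 23 stayed below 1 FPKM in both, and 25 reached it in at least 1 library. H2ac19 and H2ac24 had only rows with the status LOWDATA, which Cufflinks gives where the data are too few or the locus too complex, and are not reported. The 39 genes under 1 FPKM held 83 fragments in the unstimulated (exact Poisson interval 66.1 to 102.9) and 60 in the LPS library (45.8 to 77.2). Just outside the limit stood H1f5, the linker histone H1.5, with 10 fragments unstimulated and 1 after LPS (0.973 and 0.0926 FPKM), and H2ac10 with 4 and 1. H3c7, an H3 gene also under the limit, went the other way, at 0.627 and 0.922 FPKM on 11 and 17 fragments. Just inside it stood H1f4 (1.17 and 0.657 FPKM) and H4c3 (1.23 and 0.783), of which H4c3 rested on 3 and 2 fragments.

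Low levels went with short annotated loci. The most common locus length was 312 bases for H4, 381 for H2B, 393 for H2A and 411 for H3, and 26 of the 68 usable member rows had exactly that length. Whether rows of these lengths cover the whole transcript was not checked, so a low value there need not mean a silent gene. These 26 rows held 45 fragments, 0.629% of the members' fragments, in the unstimulated library and 22, 0.292%, in the LPS library. The highest FPKM among them in the unstimulated library was that of H4f16 (Hist4h4), 2.47 on 6 fragments. A single fragment counted for 0.411 FPKM in an H4 row of 312 bases and for 0.220 FPKM in an H3 row of 411 bases when unstimulated, so the shortest rows move by large steps. The members with most fragments in the unstimulated library had longer loci. These were 8282 bases for H2bc4, 1561 for H1f2, 578 for each of 2 copies of H2ac18 and 2618 for H2bc21. Locus length is the genomic span, which can exceed the transcript length that FPKM divides by. In unstimulated cells 1 fragment counted for 0.0869 FPKM in H2bc4 and for 0.0910 in the 704-base row of H2ac8. The span of H2bc4 thus overstates its counted length. Longer transcripts also give more fragments at the same FPKM. Long loci were not always high, since the row of H1f3 spanned 2977 bases at 2.92 FPKM and a row of H2bc6 37425 bases at 0.567.

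**Figure D2:**
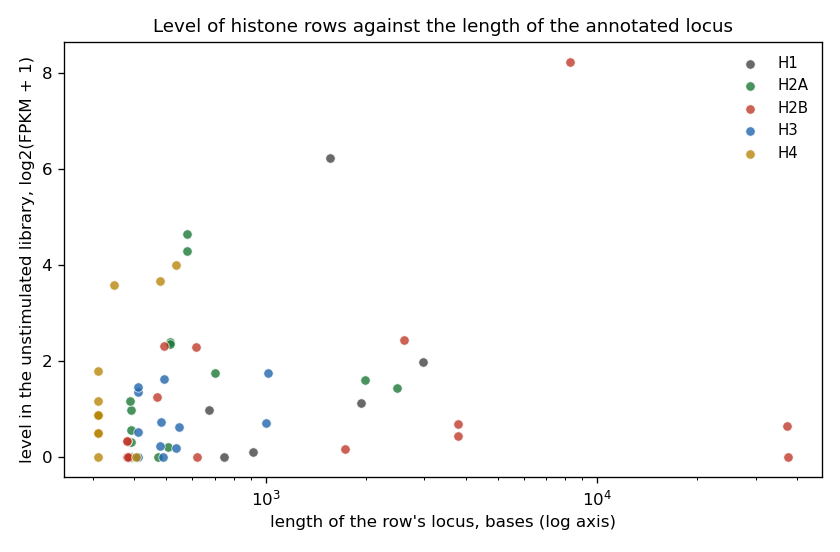
Level in the unstimulated library, as log2(FPKM + 1), of the 68 usable histone rows against the length of the row's locus in bases (log axis), coloured by histone class. Locus length is the genomic span and not the transcript length. Rows at the left edge, from 312 to 411 bases, lie low apart from the 348-base row of H4c14, and the 2 highest rows are H2bc4 and H1f2.

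Summed over the members behind the 3 leading genes, histone RNA was lower after LPS. This sum leaves out H2ac18, which went from 350 fragments unstimulated to 599 after LPS. Much of the difference lay in H2bc21, from 233 to 77 fragments, and H1f3, from 178 to 66. Members other than H2bc4, H1f2 and H2ac18 summed to 94.0 FPKM on 1190 fragments (1123 to 1260) in the unstimulated library and to 58.1 FPKM on 857 fragments (801 to 916) in the LPS library. In a bulk library fewer cells in S phase and less histone RNA per cell cannot be told apart. Unequal capture of RNA without a poly(A) tail by the 2 libraries was not tested. Over all 64 genes, 36 had a lower and 12 a higher value in the LPS library, and 16 were at 0 in both. Some of the 36 differed only in what 1 fragment was worth, such as H4c1, with 2 fragments in both libraries (0.822 and 0.783 FPKM). H2bc4 was also among the 36, on 3423 and 3438 fragments. The matching split over all genes was not counted. With no replicates, calls rest on size alone: among genes reaching 1 FPKM in either library, log2(FPKM + 1) had to differ by 1 or more, which is 2-fold on that scale. By this rule 4 of 25 members (16.0%) were lower and 1 (4.00%) was higher. Of all 10035 genes counted, 12.4% were lower and 8.55% higher, so the members' shares lie near this background. The members' median change was -0.32 and that of all counted genes -0.24. Scaling moved the split: 9 members were lower and 1 higher after rescaling to TPM, and 2 were lower and 2 higher after quantile normalisation. Of the 25 members, 9 reached 1 FPKM only in unstimulated cells and 2 only after LPS, so these 11 entered through their higher value. Among them are 3 of the 4 genes called lower, H4c14, H2bc18 and H3c13, and the gene called higher, H4c17.

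**Figure D3:**
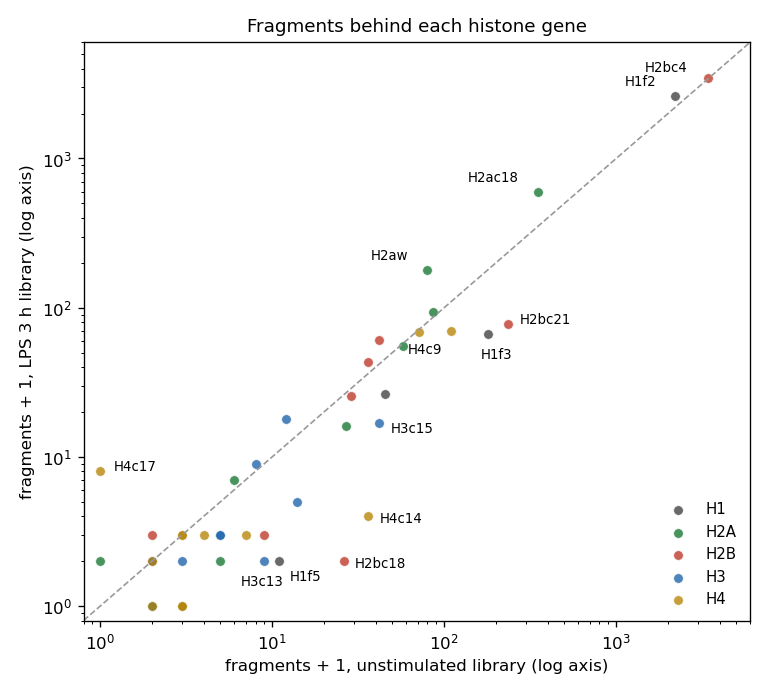
Fragments plus 1 behind each histone gene in the unstimulated library (horizontal) against the LPS library (vertical), both on log axes, coloured by histone class; the dashed line marks equal numbers. H2aw and H2ac18 lie above the line, H2bc21, H1f3, H4c14 and H2bc18 below it, and most genes in the lower left rest on fewer than 10 fragments.

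The 4 members that fell by the size rule were genes of the Hist2 cluster on chromosome 3, and of these only H2bc21 reached 1 FPKM in both libraries. With a pseudocount of 0.1 or after TPM, 5 Hist2 genes, the Hist1 genes H1f3, H3c8 and H2bc3 and the Hist4 gene H4f16 were called lower, so the restriction to Hist2 depends on the setting. H4c14 (Hist2h4, mm9 96066893 to 96067240), one of the many genes that encode histone H4, fell from 11 FPKM (7.28 to 14.7) on 35 fragments to 0.898 (0 to 1.93) on 3. It was 12.3-fold lower (3.86 to 62.3). H2bc18 (Hist2h2bb, 96073623 to 96074115), an H2B gene, fell from 3.94 FPKM (2.36 to 5.51) on 25 fragments to 0.15 (0 to 0.450) on 1, a ratio of 26.3-fold that 1 fragment leaves wide (4.30 to 1078). Its neighbour H3c13 (Hist2h3b), an H3 gene, fell from 1.76 FPKM to 0.209, on 8 fragments and 1 (8.40-fold, 1.13 to 373), and is the 1 of the 4 whose deposited intervals overlapped. The fall with most fragments behind it was that of H2bc21 (Hist2h2be, 96025044 to 96027661), an H2B gene, from 4.39 FPKM (3.82 to 4.97) on 233 fragments to 1.38 (1.07 to 1.70) on 77, or 3.18-fold (2.45 to 4.17). With a pseudocount of 5 the change of H2bc21, H2bc18 and H3c13 was short of the rule (-0.56, -0.80 and -0.38), and after quantile normalisation those of H2bc21 (-0.84) and H3c13 (-0.95). All 6 measured members of the list of RNAs without a poly(A) tail were lower in the LPS library, at a summed 457 and 66.2 FPKM. Whether this bears on these falls was not tested.

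The cluster was not uniform. Of its 7 counted genes, 5 were lower in the LPS library and 2 were higher. H3c15, an H3 gene beside the H2ac18 copies, was at 2.37 FPKM (1.63 to 3.11) and 0.858 (0.429 to 1.29), a change of -0.86 with separate intervals, in a locus that also holds a LOWDATA row of H3c14. H2ac18 (Hist2h2aa1), an H2A gene deposited at 2 neighbouring loci, was at 42.6 FPKM (38.0 to 47.2) and 69.4 (63.7 to 75.1). Both loci were higher after LPS, at 24.0 and 36.2 FPKM for 96043639 to 96044216 and at 18.6 and 33.3 for 96049461 to 96050038. The ratio was 1.63 (1.43 to 1.86), and the change of 0.69 stayed under the size rule. Fragments of the 2 copies may have been assigned to either, and each locus also holds a LOWDATA row of H2ac19. The whole cluster summed to 68.0 FPKM on 702 fragments unstimulated and to 74.6 on 705 after LPS. Without H2ac18, its highest member, it summed to 25.5 FPKM on 352 fragments (316 to 391) unstimulated and to 5.15 on 106 (86.8 to 128.2) after LPS.

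In the Hist1 cluster on chromosome 13, which holds 52 of the 64 genes, 16 were counted, 0 were called lower and 1 was called higher, against 3 lower with a pseudocount of 0.1 or after TPM. The members other than H2bc4 and H1f2 summed to 64.1 FPKM on 753 fragments unstimulated and to 47.9 on 572 after LPS. The member called higher was H4c17 (Hist1h4m), at 0 and 1.51 FPKM (0.368 to 2.65). This rests on 0 and 7 fragments, and its locus contains a LOWDATA row of H4c18 to which fragments could be assigned instead, so the call is uncertain. It was not called with a pseudocount of 5 (0.38) or among members of 10 or more fragments. Within this cluster H1f3, the linker histone H1.3, came closest to a lower call, at 2.92 FPKM (2.48 to 3.36) on 178 fragments and 1.03 (0.778 to 1.29) on 66. Its change of -0.95 missed the rule, although it was 2.83-fold lower (2.12 to 3.82) without a pseudocount. The rule understates genes of low FPKM in this way.

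**Figure D4:**
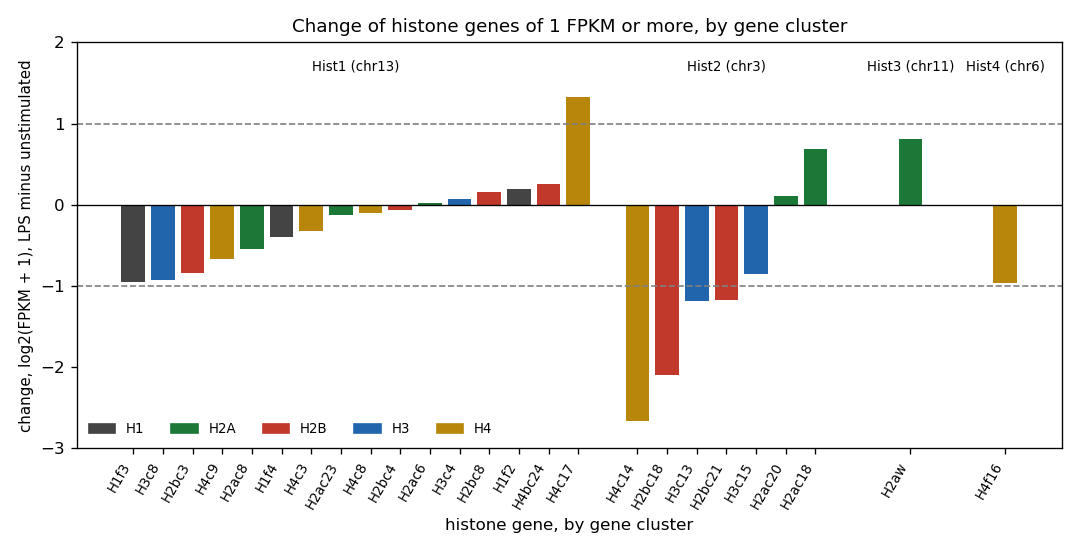
Change in log2(FPKM + 1), LPS minus unstimulated, of the 25 counted histone genes, sorted within each gene cluster and coloured by histone class; dashed lines mark the size rule at -1 and 1. The bars past -1 are H4c14, H2bc18, H3c13 and H2bc21, all in Hist2, and the bar past 1 is H4c17 in Hist1.

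The H4 genes with most fragments lie in the Hist1 cluster. H4c9 (Hist1h4i) was at 14.9 FPKM (12.05 to 17.8) and 8.98 (6.82 to 11.1), 1.66-fold lower (1.22 to 2.28) and within the size rule. H4c8 (Hist1h4h) was at 11.6 FPKM (8.85 to 14.4) and 10.8 (8.15 to 13.4), on 70 and 68 fragments, with overlapping intervals. H4 genes encode the same protein, and how fragments that match more than 1 gene were counted is not stated in the labels.

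Among the other H2A and H2B genes, H2ac23, an H2A gene at 2 loci, summed to 8.37 FPKM (6.14 to 10.6) and 7.55 (5.49 to 9.60). H2bc8, an H2B gene, was at 3.88 FPKM (2.57 to 5.19) and 4.43 (3.06 to 5.796), and H2ac6, an H2A gene, at 1.69 (1.32 to 2.06) and 1.74 (1.38 to 2.11). All 3 had overlapping intervals. H2aw (Hist3h2a, mm9 chromosome 11, 58768187 to 58770176), the 1 counted gene of the small Hist3 cluster, was at 2.01 FPKM (1.56 to 2.47) on 79 fragments and 4.30 (3.65 to 4.94) on 177. The ratio was 2.13 (1.63 to 2.82), a change of 0.81 that passed the rule with a pseudocount of 0.1 (1.06), after median scaling (1.01) and after quantile normalisation (1.12). By class, H2A summed to 60.1 FPKM unstimulated and 86.1 after LPS, of which H2ac18 made up 70.9% and 80.6%, and to 17.5 and 16.7 without it. H3 summed to 10.3 and 5.17 FPKM. H4 summed to 45.3 and 25.7 FPKM, H2B to 313 and 293, of which H2bc4 made up 94.97% and 97.0%, and H1 to 78.6 and 85.8, of which H1f2 made up 93.5% and 97.9%.

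The counted members not yet given had overlapping intervals and no call. Among H2A genes, H2ac8 was at 2.37 and 1.30 FPKM on 26 and 15 fragments and H2ac20 at 1.22 and 1.40 on 5 and 6. For H2B, H4bc24 (Hist1h2br, an H2B gene by its older symbol) was at 0.974 and 1.36 FPKM on 41 and 60 fragments over 2 loci, and H2bc3 at 1.38 and 0.328 on 8 and 2. The H3 gene H3c8 was at 2.05 and 0.602 FPKM on 13 and 4 fragments, and H3c4 at 1.54 and 1.67 on 7 and 8. H1f4, the linker histone H1.4, had 44.1 and 25.4 fragments and shares part of its locus with H2bc6, so the split between them is uncertain. With H4c3 and H4f16, 6 of these genes were lower and 3 higher in the LPS library. The ratio interval excluded 1 for H3c8, 3.41-fold lower (1.05 to 14.4), and for H1f4, 1.79-fold lower (1.08 to 3.09).

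By the deposited intervals, 6 of the 25 members (24.0%) were separately lower and 3 (12%) separately higher in the LPS library. Among all counted genes these shares were 48.5% and 25.1%. Whether intervals separate depends on the number of fragments, and only 18 of the 25 members had 10 or more in either library. Members and all genes were not matched for fragments, so these shares are not compared further. The 6 lower genes were H4c14, H2bc18, H2bc21, H1f3, H3c15 and H4c9, and the 3 higher ones H1f2, H2ac18 and H2aw.

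Genes that make, process and load histones were examined from lists chosen for their roles. Calls follow the size rule, by which 12.4% of all 10035 counted genes were lower and 8.55% higher. These shares are the background for this and every list below. Of 10 counted genes in the transcription of histone genes, 6 fell and 0 rose, with a median change of -1.08. Hinfp (5.07 and 5.39 FPKM), Coil (3.66 and 3.91), Yy1 (29.2 and 27.5) and Gon4l (3.47 and 2.15) had no call. Npat, the coactivator of histone genes in S phase, fell from 3.27 FPKM (2.98 to 3.56) to 0.995 (0.840 to 1.15), and its partner Casp8ap2 (FLASH) from 1.60 to 0.239. Cyclin E with its kinase activates Npat. The cyclin E genes Ccne2 and Ccne1 fell from 27.3 to 3.64 FPKM and from 17.04 to 5.74. The S phase transcription factor gene E2f1 fell from 18.04 to 5.36 FPKM and the kinase gene Cdk2 from 15.2 to 5.802. Among 14 counted genes listed under histone pre-mRNA processing, a list without Casp8ap2, 1 fell and 0 rose (median -0.42). That gene was Slbp, whose protein binds the stem-loop, from 35.7 FPKM (33.6 to 37.9) to 11.8 (10.6 to 12.9). Lsm10 and Lsm11, the U7-specific ring proteins, were at 15.1 and 16.1 FPKM and at 1.56 and 1.40. Among 10 genes of histone mRNA decay and translation 1 rose, the decapping enzyme gene Dcp2 (2.01 to 5.64 FPKM), and 0 fell (median -0.09).

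Of 15 histone chaperone and import genes, 4 fell and 1 rose (median -0.73). Asf1b, which hands newly made H3 and H4 to assembly factors in proliferating cells, fell from 69.0 FPKM (66.0 to 72.0) to 13.5 (12.2 to 14.7). Chaf1a, of the assembly factor CAF-1, fell from 8.26 to 2.62 FPKM, Nasp, which stores H3 and H4, from 55.3 to 24.0, and Tonsl, a reader of newly made H4, from 2.46 to 0.682. The gene that rose was Daxx, a chaperone of the replication-independent H3.3, from 5.06 FPKM (4.43 to 5.68) to 74.7 (72.3 to 77.1). Of 30 genes of DNA replication and nucleotide supply, 26 fell and 0 rose, with a median of -1.27. Tk1, the thymidine kinase of S phase, fell from 18.8 to 3.72 FPKM. Of 10 mitosis markers 5 fell and 0 rose (median -1.05).

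Replication-independent variants, most of which are encoded by polyadenylated mRNAs that are not tied to S phase, ranged in the unstimulated library from 0 for H1f10 to 331 FPKM. Of 10 counted, 0 rose and 0 fell by the rule (median -0.28). The highest were H2az1, for H2A.Z, at 331 and 271 FPKM, and H3f3b, for H3.3, at 248 (243 to 253) and 397 (391 to 404). Among replication-dependent genes, H2bc4 lay between these 2 in the unstimulated library. H3f3b alone exceeded all replication-dependent H3 genes together in both libraries. Whether RNA with and without a poly(A) tail was captured equally was not tested.

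**Figure D5:**
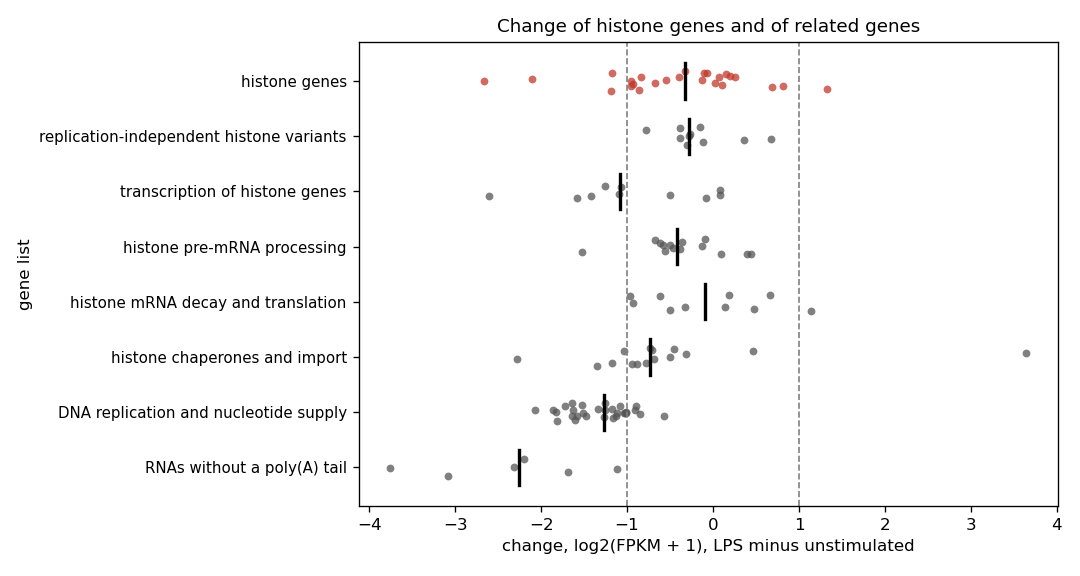
Change in log2(FPKM + 1), LPS minus unstimulated, of each gene of 1 FPKM or more in the histone group (red) and in 7 lists of related genes (grey), with the list median as a black bar and the size rule as dashed lines. The histone genes spread from -2.66 to 1.33 around a median of -0.32, DNA replication genes lie lower, and the 6 RNAs without a poly(A) tail are all below -1.

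RNAs listed as made without a poly(A) tail were lower in the LPS library. All 6 measured members of that list of 10 fell, with a median change of -2.26. The nuclear RNA Malat1 fell from 125 FPKM (123 to 127) to 24.3 (23.5 to 25.1) and Neat1 from 69.0 (66.9 to 71.0) to 14.3 (13.4 to 15.2). Neat1 has a polyadenylated short form besides the long one, and its value here does not separate them. Rpph1, the RNA of RNase P, fell from 223 FPKM (205 to 241) to 25.4 (19.4 to 31.4), and Rmrp, the RNA of RNase MRP, from 34.9 to 1.66 on 60 and 3 fragments. Vaultrc5 (10 fragments and 1) and Terc (7 and 1) are low.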

How the data were processed

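RNA of 1 unstimulated and 1 LPS-stimulated BV2 library was used, and the other 21 samples of the series were not analysed here. Per the submitters' processing notes, the authors made the deposited FPKM tables with Cufflinks on build mm9. Its version, the aligner, the handling of multi-mapped reads and the use of strand in counting are not given in the sources used. Of 28246 rows, 27560 were named through the RefSeq gene table of GRCm38.p6, used for names only. Rows without status OK in both libraries (391) as well as those of small RNAs (704) were dropped; rows of 1 symbol were summed, with half-widths combined in quadrature, which left 21597 genes. Loci are mm9, 1-based. The change is log2(FPKM + 1) of LPS minus unstimulated. With 1 library per group no test was made. Fragments are (2 × FPKM / half-width) squared. The script's fragment recovery and calls were tested on simulated data. Tools were Python 3.11.15, pandas 2.3.3, NumPy 2.4.6, SciPy 1.17.1 and matplotlib 3.10.9.

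Members and lists were chosen with earlier results of these data known. Named in full were the 10 members of highest mean FPKM, every member called and the highest of each class. Added after their values were seen were H1f3, H1f4, H1f5, H2ac6, H2ac10, H3c7, H4c1, H4c3, H4f16 and the counted members without a call. Of each list, up to 5 genes of largest change were named. Casp8ap2, Hinfp, Coil, Yy1, Gon4l, Lsm10, Lsm11 and H2az1 were added to read the histone results. The grouping by locus length and the promoter motifs were also chosen then. Alternatives were pseudocounts of 0.1 and 5, filters of 0 and 5 FPKM, TPM, median and quantile scaling, single rows, rows of every status and, chosen after seeing the data, a minimum of 10 fragments. A marker of the cell type check is not reported here.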

Additional observations from a re-analysis of the deposited data

How the results depend on the processing

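With 1 library per group the counts of histone genes are descriptions of these 2 libraries, and fragments limit them: 7 of the 25 counted genes had fewer than 10 fragments in both libraries. Scaling shifted the median change of all counted genes by -0.24 for TPM, 0.20 for median scaling and 0.11 for quantile normalisation. The 4 lower calls became 9 with a pseudocount of 0.1 and after TPM, 1 with a pseudocount of 5 and with a filter of 5 FPKM (7 genes), and 2 after quantile normalisation. They were 4 or 3 under the other alternatives, which were no filter, median scaling, single rows, rows of every status and 10 or more fragments. The single higher call became 2 with a pseudocount of 0.1, after median scaling and after quantile normalisation, and 0 with a pseudocount of 5, a filter of 5 FPKM or 10 or more fragments. The median of -0.32 became -0.59 with a pseudocount of 0.1, -0.11 with 5, -0.026 without a filter (64 genes), -0.10 with a filter of 5 FPKM, -0.56 after TPM, -0.22 after median scaling and -0.077 after quantile normalisation. H4c14 was past the size rule under each scaling and pseudocount. H3c15 passed it at a pseudocount of 0.1 (-1.36) and on the TPM scale (-1.19). The cause of these shifts was not tested. No paired analysis was possible because each group has 1 library.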
